A study of Rattus norvegicus with 4 samples.

Results

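The SLC30 genes encode the ZnT proteins, a family of membrane carriers that lower the zinc content of the cytosol. Of this family 7 genes were examined in NR8383 cells exposed to a zinc-containing particle: Slc30a1, Slc30a2, Slc30a4, Slc30a5, Slc30a6, Slc30a7 and Slc30a10. Members were taken by name, as the array probes whose RefSeq accession belongs to one of these symbols, and not by any measured value. Each of the 7 genes was matched by 1 probe in 1 spot, which made 7 of 16581 genes with a symbol on the array.

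NR8383 is a rat macrophage line that was established from lung lavage of a normal animal and grows partly attached and partly in suspension. All samples were 1 group: cells after 20 passages, kept in medium with 15% serum, seeded 48 h ahead and then exposed for 4 h to NiZnFe2O4 at 9.25 µg/mL. The formula names nickel, zinc, iron and oxygen. The labels call the 4 samples biological replicates. Cy3-labelled RNA of each went onto its own Agilent array, read in a single colour. The design sets these cells against untreated cells, whose arrays were not analysed here, so no value below shows what the exposure changed and no test between groups was made.

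Zinc carriers of the SLC30 family move zinc out of the cytosol, either across the plasma membrane or into the Golgi, secretory vesicles and the endosome and lysosome system, while carriers of the SLC39 family move it into the cytosol. Metallothioneins bind zinc within the cytosol, and the transcription factor MTF1 senses zinc and drives metallothionein genes and, in mouse, Slc30a1. Macrophages use these carriers to shift zinc between the cytosol and compartments that hold engulfed material.

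The promoter of Slc30a1 is shown because MTF1 acts through a short DNA element, the metal response element. The sequence is that of RefSeq on build GRCr8, 250 bases up to the annotated start, at chr13:106021769-106022018 on the plus strand. Capitals mark matches to the core of this element, searched as TGCACNC and TGCGCNC on both strands.
Slc30a1: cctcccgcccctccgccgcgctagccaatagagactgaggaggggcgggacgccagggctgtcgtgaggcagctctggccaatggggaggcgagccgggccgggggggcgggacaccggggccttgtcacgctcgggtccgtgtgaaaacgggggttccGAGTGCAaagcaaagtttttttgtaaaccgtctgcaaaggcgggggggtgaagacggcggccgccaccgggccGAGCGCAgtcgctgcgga

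The Slc30a1 window held 2 matches, both on the antisense strand, which began 91 and 18 bases before the start. Over all 33469 promoter windows of 300 bases, from 250 bases before to 50 after a start, 24.2% held at least 1 match and 6.36% held 2 or more. Windows were given for 5 of the 7 genes, and those of Slc30a1, Slc30a2, Slc30a4 and Slc30a5 held 2 to 3 matches in at least 1 window, whereas the window of Slc30a6 and the second window of Slc30a2 held none. Slc30a7 and Slc30a10 are named only. The motif is rich in G and C, and so were the windows of the members with a match, at 65.3% to 82.3% G and C, against a median of 51.7% over all windows. The Slc30a3 window, at 70.3%, held no match. In Slc30a5 the 2 matches overlapped on opposite strands. A match describes these letters and is not a binding site.

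For comparison, the window of the metallothionein gene Mt1 held 6 matches and that of Mt2A held 4. Only 0.439% of all windows held 4 or more. The following 27-base stretches, read 5′ to 3′ along each gene's own strand on GRCr8, show 1 match per gene in capitals.
Slc30a1, chr13:106021918-106021944, plus strand, 91 bases before the start: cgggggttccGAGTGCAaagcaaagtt
Mt1, chr19:10833028-10833054, minus strand, 69 bases before the start: accgccaactGAGTGCAaaccctttgc
Slc30a2, chr5:151843352-151843378, plus strand, 89 bases before the start: cgcgggctttTGCACACgacgcgctgc
Slc30a4, chr3:130228946-130228972, minus strand, 74 bases before the start: cgcgcctcgcGGGCGCAcgcgccgcct
Slc30a5, chr2:33710032-33710058, minus strand, 150 bases before the start: cgtgtccagcTGCGCGCacgcgcagga

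Signals are given first as the processed signal of the scanner software, in intensity units after background subtraction. A spot counted as detected when the software called it well above background. The lowest signal with that call was between 13.6 and 17.3 intensity units on the 4 arrays. The call has no fixed cut, and the highest signal without it was between 18.5 and 20.6. Between 21812 and 24981 of the 58717 transcript spots passed on an array, and none was saturated. The number of arrays limits the precision. Of 13 macrophage markers 9 passed on all 4 arrays, beside 38.7% of all genes with a symbol. Among these 9, Cd68 stood at a log2 level of 7.13 ± 0.08 and Cd14 at 0.09 ± 0.46 (SD, n = 4 each). Mrc1 and Msr1 passed on 3 arrays, while Adgre1 and Marco passed on none. No measured marker of lung epithelium (5), lymphocytes (3), neutrophils (3) or fibroblasts (3) passed on all 4, and Cd3g and S100a8 passed on some.

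Transcripts of 3 members were detected on every array, 1 was at the limit of detection and 3 were not detected. Slc30a1, Slc30a6 and Slc30a7 were well above background on all 4 arrays, which is 3 of 7, beside 38.7% of all genes with a symbol. Slc30a5 passed on 2 arrays, and 9.85% of all genes passed on 1 to 3. Slc30a2, Slc30a4 and Slc30a10 passed on none, as did 51.4% of all genes. These shares lie near those of all genes. Of the 28 member spots, 14 passed and none carried an outlier flag for the spot itself. Outlier flags for the local background were not counted.

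**Figure D1:**
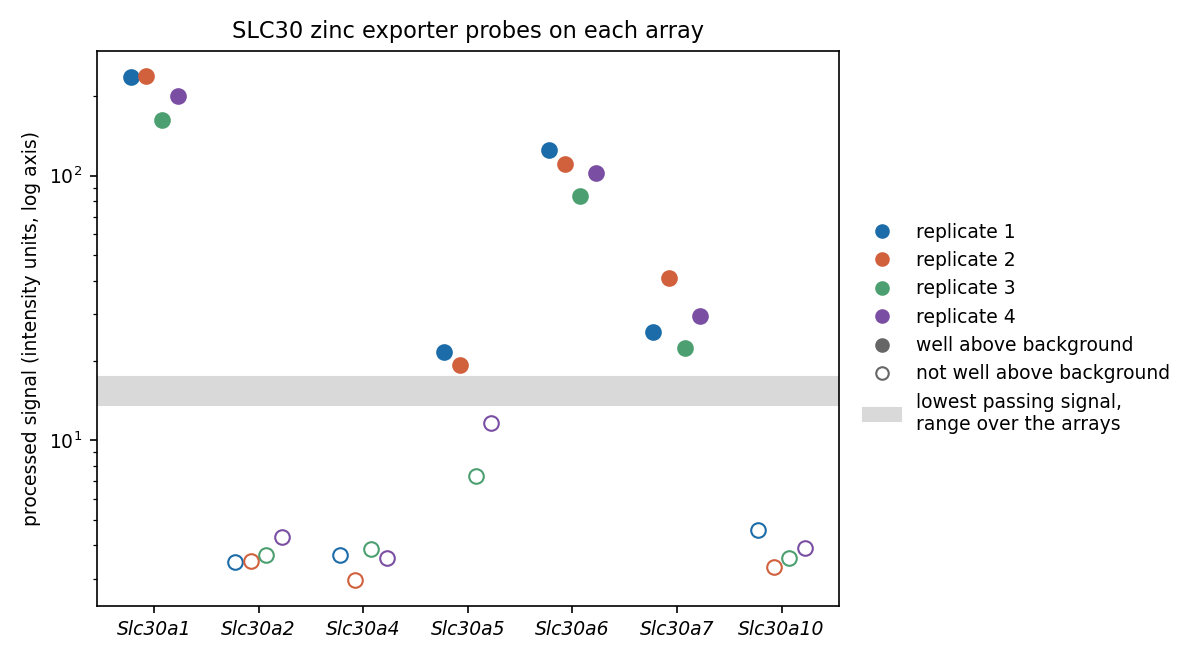
Processed signal (intensity units, log axis) of the probe of each of the 7 SLC30 members on the arrays of replicates 1 to 4; filled circles were well above background, open circles were not, and the grey band is the range over arrays of the lowest signal that passed (13.6 to 17.3). Slc30a1, Slc30a6 and Slc30a7 lie above the band on all 4 arrays, Slc30a5 lies on both sides of it, and signals of different probes are not to be set against each other.

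Slc30a1 encodes ZnT1, the exporter of the plasma membrane, which moves zinc out of the cell. Its probe (A_44_P529562) read 236, 238, 161 and 199 intensity units on replicates 1 to 4, where the raw spot signals were 197.5 to 270.5 over a local background of 31 to 33. Replicates 1 and 2 were nearly equal and replicate 3 was lowest, below replicate 1 by a factor of 1.46. The mean was 209 ± 36.2 intensity units (SD, n = 4). The software's own error for a single spot was about 10% of the signal, between 10.1% and 10.3%, and the spread between arrays was 17.3% of the mean.

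Arrays differ in overall brightness, so levels were also taken on the log2 scale with the 75th percentile over an array's own probes subtracted. This percentile was 41.6, 32.7, 23.5 and 24.8 intensity units on replicates 1 to 4. On this scale Slc30a1 stood at 2.50, 2.86, 2.78 and 3.01, with a mean of 2.79 ± 0.21 (SD, n = 4). The order of the arrays changed with the scaling: replicate 3 was lowest in signal and replicate 1 in level. Of the 6418 genes above background on all arrays, whatever their brightness, 45.5% had a smaller SD than Slc30a1, and the median SD was 0.23. Replicate 1 lay farthest from the mean on this scale, and leaving out the farthest array lowers an SD by construction. Without replicate 1 the SD was 0.12, and 21.7% of the genes then had a smaller one. The place of Slc30a1 among all genes moved with the processing as well. It was 21.3% without scaling, 24.2% with the normexp background correction, and between 21.3% and 60.8% over all settings.

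In the early secretory pathway, ZnT5 and ZnT6, encoded by Slc30a5 and Slc30a6, form a heteromer that loads zinc into the Golgi and its neighbouring compartments, and ZnT6 is thought to have no transport activity by itself. Slc30a6 (probe A_64_P030659) read 125, 111, 83.4 and 102 intensity units on replicates 1 to 4, a mean of 105 ± 17.5 (SD, n = 4). Replicate 1 was highest and replicate 3 lowest, and all 4 signals were far above the lowest signal that passed. On the scaled log2 axis it stood at 1.59, 1.76, 1.83 and 2.04, with a mean of 1.80 ± 0.19 (SD, n = 4). Of the genes above background, 36.7% had a smaller SD. Without replicate 4, the array farthest from the mean on this scale, the SD of Slc30a6 was 0.12, and 24.5% of the genes had a smaller one. The share was 17.9% without scaling, 17.1% when detected probes alone set the percentile, and 1.73% with normexp, and it ranged up to 53.1% over all settings.

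Slc30a5, the partner of Slc30a6, was measured at the edge of detection. Its probe (A_43_P10200) read 21.6 and 19.3 intensity units on replicates 1 and 2, which passed, and 7.34 and 11.6 on replicates 3 and 4, which did not. All 4 spots met the software's looser call, positive and significant against background, which 50.9% of all genes met on all arrays. The software's error for the spot was 19.6% and 19.9% of the signal on replicates 1 and 2, against 53.8% and 33.7% on replicates 3 and 4. Replicates 3 and 4 were also the arrays of lower overall brightness, whose part in the failed calls was not tested.

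On the scaled log2 axis the Slc30a5 spot stood at -0.95, -0.76, -1.68 and -1.10 on replicates 1 to 4. The spot of replicate 3 was lowest, and the spots of replicates 1 and 4 differed by less than those of replicates 3 and 4. The lowest passing level was -1.35 and -1.27 on replicates 1 and 2, and -0.45 and -0.58 on replicates 3 and 4. The Slc30a5 levels of replicates 1, 2 and 4 lay between these pairs of limits, and that of replicate 3 lay under the lowest passing level of all 4 arrays. No mean is given for Slc30a5, because 2 of its 4 spots were not well above background.

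**Figure D2:**
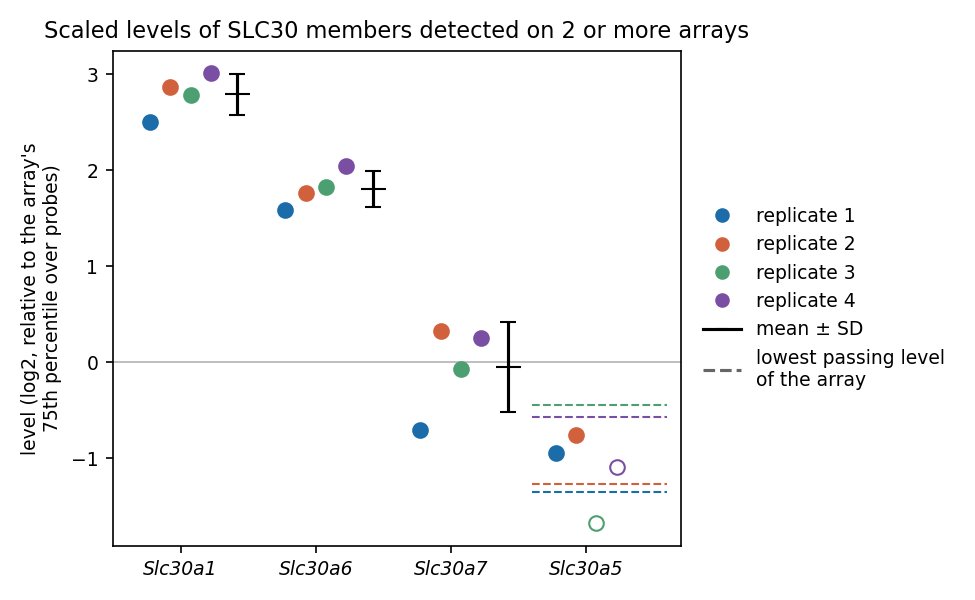
Level of Slc30a1, Slc30a6, Slc30a7 and Slc30a5 (log2, relative to the array's own 75th percentile over probes) on each array, with the mean ± SD over 4 arrays for the genes that passed on all of them; dashed lines beside Slc30a5 give the lowest passing level of each array. Replicate 1 is lowest for Slc30a1, Slc30a6 and Slc30a7, and the dashed lines of replicates 3 and 4 lie above every Slc30a5 value.

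Slc30a7 encodes ZnT7, which carries zinc into the Golgi. Its probe (A_43_P18126) read 25.6, 41.0, 22.3 and 29.5 intensity units on replicates 1 to 4, a mean of 29.6 ± 8.13 (SD, n = 4). Replicate 2 stood above the other 3, at 1.83 times replicate 3. The software's error for the spot was 12.2% to 18.4% of the signal, and the spread between arrays was 27.5% of the mean.

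On the scaled log2 axis Slc30a7 stood at -0.70, 0.32, -0.07 and 0.25, with a mean of -0.05 ± 0.47 (SD, n = 4). Replicate 1 was lowest and replicates 2 and 4 lay close together at the top. This was the widest spread of the 3 members seen on all arrays: 92.8% of the genes above background had a smaller SD. Those genes were not matched for brightness, and Slc30a7 is dim. On replicate 3 it read 22.3 intensity units, on an array where signals up to 19.7 were not well above background. Replicate 1 lay farthest from the mean on this scale. The SD was 0.21 without that array, at which 54.9% of the genes had a smaller SD. Leaving out replicate 2, 3 or 4 instead gave an SD of 0.49, 0.57 or 0.52. Leaving out the farthest array lowers an SD by construction, and without scaling replicate 2 lay farthest, by 0.51. Without scaling the SD was 0.38, and 47.6% of the genes had a smaller one. With normexp the share was 31.8%. Unscaled SDs of all genes carry the differences in array brightness, and the normexp offset shrinks log2 differences of dim probes by construction. The shares of the 3 members under these settings are therefore not like for like with those above.

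The array that read highest or lowest for a gene turned on the scaling for all 3 members. Replicate 1 was lowest for Slc30a1, Slc30a6 and Slc30a7 when arrays were scaled by the 75th percentile over all probes or over detected probes alone, or by quantile normalization. For Slc30a1 it deviated from the gene's mean by -0.28, -0.22 and -0.23 log2 units under these scalings, and for Slc30a7 by -0.65, -0.59 and -0.65. Without scaling it was above the mean for Slc30a1, by 0.20, and for Slc30a6, by 0.26, and replicate 3 was lowest for all 3 genes. With the normexp background correction replicate 3 was lowest for Slc30a1 and Slc30a6 and replicate 1 for Slc30a7. Deviations of single arrays are therefore not read as differences between the cultures.

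**Figure D3:**
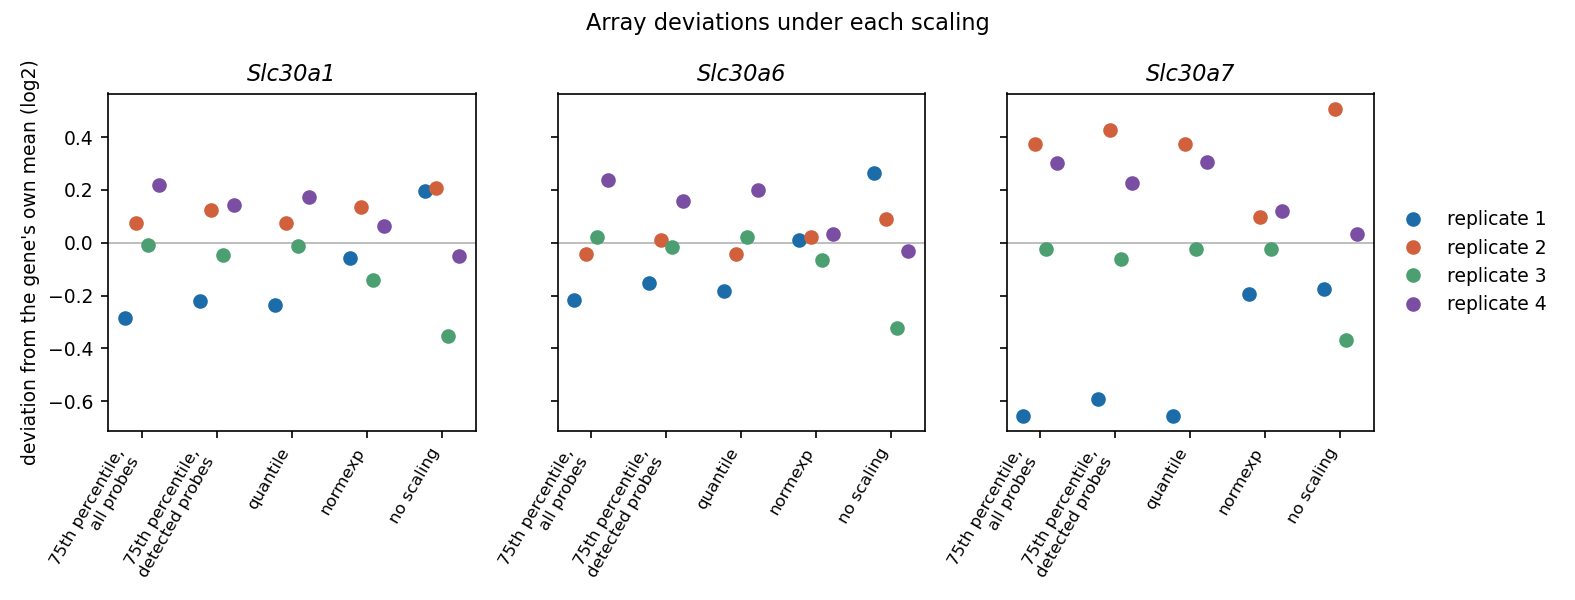
Deviation of each array from the gene's own mean over 4 arrays (log2 units) for Slc30a1, Slc30a6 and Slc30a7 under 5 ways of scaling the arrays. Replicate 1 is lowest in the first 3 columns of each panel, and without scaling replicate 3 is.

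The position of the spots on the glass was examined because signals of a whole area of an array can be raised or lowered together. Around each member spot, 75 to 166 detected spots within 10 rows and columns gave the local median deviation of the array. It lay between -0.09 and 0.14 log2 units for the 28 member spots. For the Mtf1 probe that passed on 3 arrays, the same value on replicate 2 was -0.54.

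The remaining members gave signals at the floor of the arrays. Slc30a2 encodes ZnT2, a vesicle carrier known from the mammary gland. Its probe read 3.47, 3.50, 3.69 and 4.31 intensity units on replicates 1 to 4. Slc30a4 encodes ZnT4, a carrier of endosomes and secretory vesicles whose loss in mouse lowers the zinc content of milk. Its probe read 3.67, 2.95, 3.88 and 3.59. Slc30a10 encodes a carrier that in humans exports manganese. Its probe read 4.56, 3.32, 3.58 and 3.92.

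Values at this floor have no order. Of the 12 spots of these 3 genes, 8 had a background-subtracted signal below 0, and the values ran from -9.68 to 4.60 intensity units. For Slc30a10 the spots of replicates 1 and 4 met the looser call, and no spot of Slc30a2 or Slc30a4 did. With 1 probe per gene, a transcript form that the probe does not bind would not be seen. That these transcripts were not detectable at this signal does not show that they were absent.

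The other zinc genes on the array were set beside the members. Of 3 further family genes, Slc30a3 passed on all 4 arrays and Slc30a8 and Slc30a9 on none. Slc30a3 encodes ZnT3, known for loading zinc into synaptic vesicles of neurons. Its probe is printed in 10 spots per array and averaged 39.9, 34.9, 41.3 and 30.1 intensity units on replicates 1 to 4.

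The repeated Slc30a3 spots give a measure of error for a dim probe. Within an array the SD of its 10 spots was 0.20, 0.24, 0.28 and 0.20 log2 units on replicates 1 to 4, or 0.23 pooled. Between arrays the scaled level of Slc30a3 had an SD of 0.38 around a mean of 0.28 (n = 4). Without scaling its SD between arrays was 0.21. The SD within an array is that of single spots, whereas the SD between arrays is that of means of 10 spots. These are unlike measures, so their sizes are not set against each other. Slc30a7 has a single spot per array, so no SD within an array can be given for it.

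Of the 12 SLC39 importers measured, 9 passed on all 4 arrays, beside 38.7% of all genes with a symbol. Slc39a5 passed on 3, and Slc39a12 and Slc39a14 on none. Whether the share of importers differs from that of the exporters or of all genes was not tested. Mt1 and Mt2A, the metallothionein genes, stood at 7.17 ± 0.17 and 3.38 ± 0.17 (SD, n = 4 each). Mt3, Mt4 and Tmem163, which encodes a zinc transporter and does not carry an SLC30 symbol, passed on no array. Of the 2 probes of Mtf1, 1 passed on replicates 1, 3 and 4, at 25.7, 18.9 and 19.6 intensity units, and not on replicate 2, at 5.30. The other Mtf1 probe passed on no array, at 3.45, 2.69, 3.56 and 3.29 on replicates 1 to 4. Transcripts of metallothionein genes are closely alike, and a probe may bind more than 1 of them, so the Mt1 and Mt2A levels are uncertain.

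**Figure D4:**
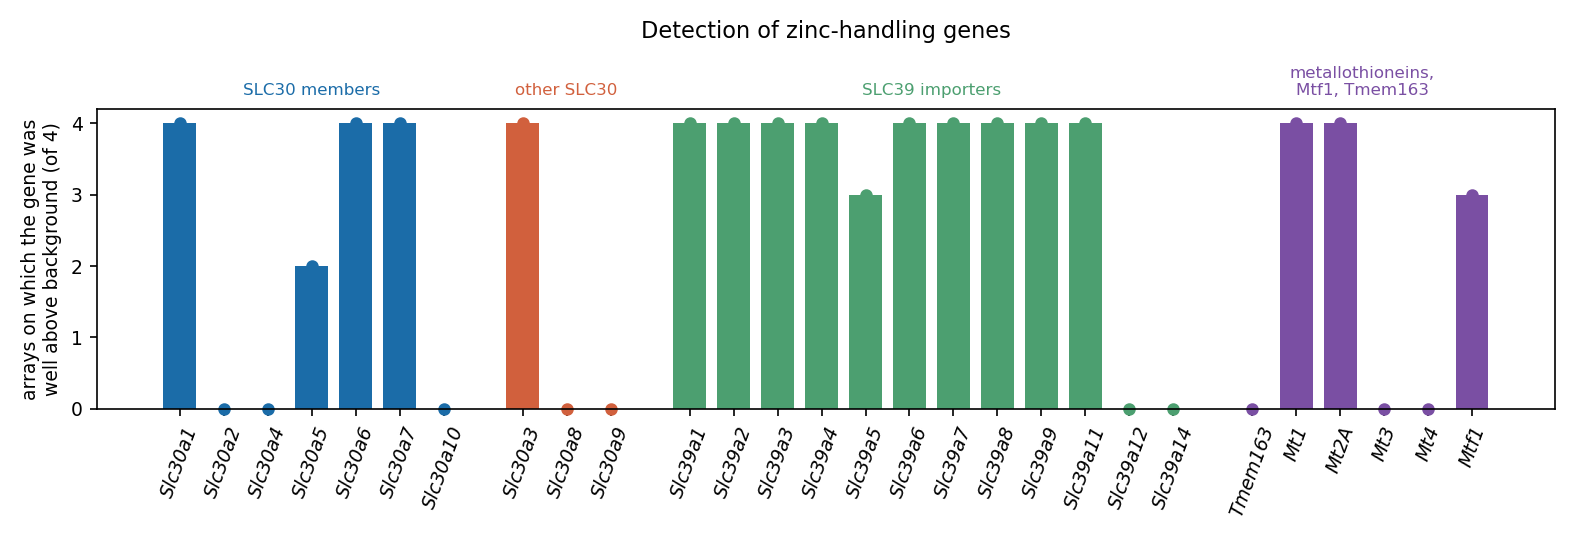
Number of arrays, of 4, on which each zinc-handling gene with a probe was well above background, for the 7 SLC30 members, the other SLC30 genes, the SLC39 importers and the metallothioneins with Mtf1 and Tmem163. Of the members 3 reach 4 arrays, as do 9 of 12 importers and 38.7% of all genes with a symbol.

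Since Slc30a10 is a manganese carrier in humans, genes of manganese handling were counted as well. Of 6 such genes 4 passed on all 4 arrays, beside 38.7% of all genes with a symbol. The genes that passed were Slc39a8, which imports zinc and manganese, Slc11a2, a metal importer of endosomes, and the Golgi genes Tmem165 and Atp2c1. For Atp2c1 this held for 1 of its 2 probes. Slc39a14 and Slc40a1 passed on none, like Slc30a10. Slc39a14 met the looser call on all 4 arrays, Slc30a10 on 2 and Slc40a1 on none.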

How the data were processed

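The 4 scans were quantified in Agilent Feature Extraction 11.0.1.1, as named in the submitters' processing notes. Per the file headers, each spot has a deposited linear intensity, background-subtracted by that software, and other columns with 0 or 1 flags. Per the file headers, all 4 arrays share 1 slide and 1 scan, and the array design names build rn4. Signals are not scaled between arrays and have a floor.

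Control spots (4259 per array) and spots flagged as outliers in their own signal (491 to 828 per array) were left out. An outlier flag for the local background (130 to 271 spots per array) did not remove a spot. Spots of a probe were averaged on the log2 scale, and a probe passed when at least 0.5 of its spots did. Accessions without version were matched to RefSeq symbols (GRCr8): 21109 of 45598 probes had 1 symbol, 24489 none and 0 several. A gene passed if any probe did, and its level is that of its brightest probe minus the array's 75th percentile. Only 25.4% of probes passed on all arrays. The files hold no mean spot signal, so normexp (limma 3.58.1, R 4.3.3, offset 50) used the median signal. Other steps ran in Python 3.11.15. The array scaling and the SD shares were tested on simulated arrays, and Dixon's ratio and the motif search on known answers. The detection rule, gene naming and local trend were not tested in this way. The members, gene lists and alternatives were chosen with earlier results of these data known. Named genes are all 7 members, listed zinc genes, and genes spelled out for small counts after their values were seen. Probe sequences were not used here.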

Additional observations from a re-analysis of the deposited data

Results flagged for a closer look

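Levels on the 4 arrays were examined for 27 genes, among them the 3 SLC30 members seen on all arrays, for 1 array far from the rest. No member exceeded Dixon's critical value at the 95% level. Slc39a3, a zinc importer gene, did, with a ratio of 0.844: its level was 4.73 on replicate 2, and 5.14, 5.15 and 5.08 on replicates 1, 3 and 4. In unscaled signal it was replicate 1 that lay farthest from the rest, at 1468 intensity units, with 868, 834 and 840 on replicates 2, 3 and 4. The ratio was not computed without scaling. The local median deviation around the Slc39a3 spot on replicate 2 was -0.08. Chance passes this limit in about 1 of 20 groups of samples, and 4.91% of the 6417 genes tested, out of 6418 above background on every array, did.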

How the results depend on the processing

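The count of 3 members detected on all arrays was 3 to 4 over 9 alternatives. It was 4 with the looser call, which added Slc30a5. The count was 3 when 3 of 4 arrays sufficed, when every probe or every spot had to pass, with outlier spots kept and without any 1 replicate. The share of all genes was 38.7% in the main setting and 50.9% with the looser call. It was 41.5% when 3 of 4 arrays sufficed and 33.2% when every probe had to pass. With the other alternatives it lay between 38.6% and 40.1%. Leaving out 1 replicate gave mean levels between 2.72 and 2.88 for Slc30a1, 1.73 and 1.88 for Slc30a6, and -0.17 and 0.17 for Slc30a7. Over all alternatives the SD lay between 0.12 and 0.26 for Slc30a1, 0.04 and 0.25 for Slc30a6, and 0.14 and 0.57 for Slc30a7. The lowest SDs of Slc30a6 and Slc30a7 came with normexp, whose added offset shrinks log2 differences of dim probes by construction. Other scalings shift all levels by construction. Slc30a1, Slc30a6 and Slc30a7 stood at -1.67, -2.65 and -4.51 with the percentile over detected probes, at 7.69, 6.70 and 4.85 both with quantile normalization and without scaling, and at 1.49, 0.79 and 0.04 with normexp, where the SDs were 0.12, 0.04 and 0.14. Removing the local trend left the means of Slc30a1, Slc30a6 and Slc30a7 at 2.79, 1.80 and -0.06. No paired analysis was possible because all arrays belong to 1 group. Array signal limits what can be said of Slc30a2, Slc30a4, Slc30a5 and Slc30a10.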
